A study of Homo sapiens with 6 samples.

Results

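Expression of 10 genes of bile acid synthesis and of the bile acid receptor FXR was examined in Huh7 cells and a lenvatinib resistant line made from them. The genes, CYP7A1, CYP8B1, CYP27A1, CYP7B1, BAAT, SLC27A5, SLC10A1, ABCB11, NR1H4 and NR0B2, were taken by symbol from a table of 26184 genes and loci, and all 10 were found. The samples sequenced were 3 of Huh7 P, the untreated parental hepatocellular carcinoma cell line, and 3 of Huh7 LR. Huh7 LR was derived from Huh7 P under lenvatinib, an inhibitor of receptor tyrosine kinases that include the FGF and VEGF receptors. The drug was started at 1 μM and raised to 20 μM, the dose at which the line is kept, over 10 months. The genotype of both lines is given as wild type. Huh7 LR is a line from 1 selection that was cultured apart from its parent, so effects of lenvatinib and of separate culture cannot be told apart. Whether lenvatinib was in the medium when RNA was taken is not stated for these samples. Reads counted on genes came to 71427573, 62738937 and 66961548 for Huh7 P replicates 1 to 3, and to 63233655, 70768720 and 67284160 for those of Huh7 LR.

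Bile acids are made from cholesterol in hepatocytes. CYP7A1 starts the classic route, CYP8B1 steers it towards cholic acid, and CYP27A1 and CYP7B1 act in the alternative route. SLC27A5 and BAAT join the acids to glycine or taurine, ABCB11 pumps them into bile and SLC10A1 takes them up again from blood. FXR, encoded by NR1H4, is the nuclear receptor that senses bile acids in the liver and gut. It induces NR0B2, a repressor also known as SHP, and ABCB11, and through NR0B2 and the gut hormone FGF19 it lowers CYP7A1 and CYP8B1.

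Both lines carried the markers of hepatocytes. All 8 hepatocyte markers were tested. By edgeR with an adjusted p under 0.05, 5 were higher and 0 lower in Huh7 LR, beside 23.3% and 22.4% of all genes and loci tested. At an unadjusted p under 0.05, 5 were higher and 1, AFP, was lower, beside 26.7% and 26.0% of all tested. AFP changed by -0.23 in log2 (unadjusted p = 0.0483 in edgeR's test), and its libraries overlapped between the lines. FPKM values are scaled to transcript length and library size. Those of all 8 markers, AFP included, summed to 15463, 17280 and 18717 for Huh7 P and to 20673, 20221 and 21292 for Huh7 LR. AFP was the most abundant by its mean over the 6 libraries, with mean FPKM values of 8494 in Huh7 P and 7390 in Huh7 LR. ALB had 5256 and 8931 FPKM in the same order.

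Of the 10 genes, 8 had enough reads to test, and CYP7A1 and CYP7B1 did not. By the quasi-likelihood test of edgeR with a threshold of 0.05 on the adjusted p, CYP8B1 and SLC10A1 were higher in Huh7 LR, which is 2 of 8, beside 23.3% of all 17531 genes and loci tested. No gene of the 8 (0) was lower, beside 22.4% of all tested. At an unadjusted p under 0.05, 2 of the 8, ABCB11 and NR0B2, were lower (26.0% of all tested). DESeq2 also called 0 lower, beside 19% of all tested in that fit. The fit without the filter called 1 of 10 lower (16.5% of all tested there) and the replicate block 1 of 8 (23%). Limma-trend on FPKM tested 4 of the 10 and called 1 lower with 0.1 or 1 added (23.4% and 23.5%). With a stricter threshold, an adjusted p under 0.001 together with more than a 2-fold change, 0 of the 8 were called in either direction in edgeR's test, beside 4.43% higher and 1.78% lower of all tested. For 3 of the 8, all Huh7 LR libraries had higher values than all Huh7 P libraries (28.2% of all tested), and for 2 they had lower values (27.7% of all tested). CYP8B1 reached the filter's level in 0 Huh7 P libraries and all 3 Huh7 LR libraries, and SLC10A1 in 2 and 3, so that both passed the filter with the help of the line in which they were higher. For CYP8B1, which passed through Huh7 LR alone, a difference was built into being tested, and without it 1 of 7 was higher. At an unadjusted p under 0.05, 4 of the 8 were higher (26.7% of all tested). A lower level in these bulk samples can mean fewer expressing cells or less RNA per cell, which cannot be told apart.

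**Figure D1:**
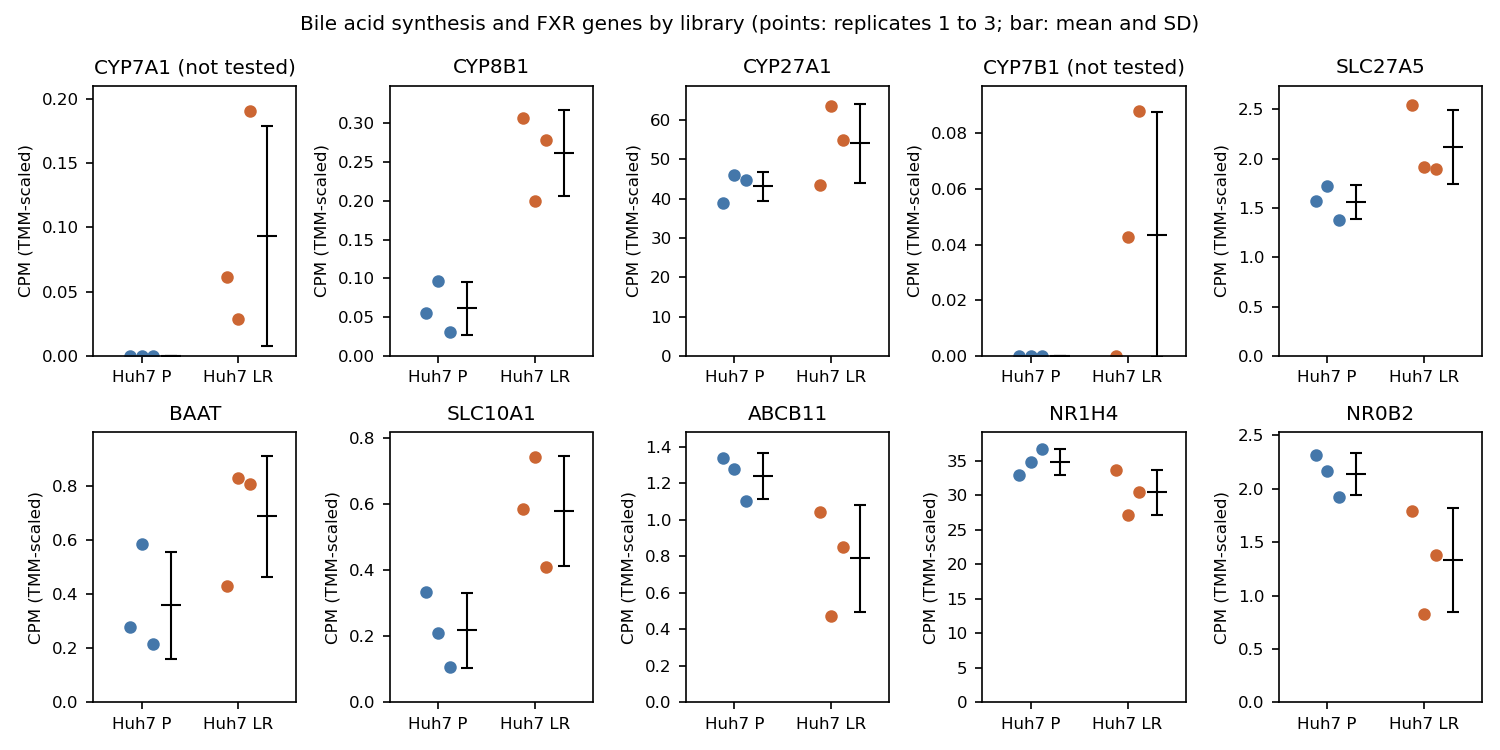
Counts scaled to library size by TMM (CPM, y axis, from 0, a scale of its own in each panel) for the 10 genes in the 3 Huh7 P and 3 Huh7 LR libraries (x axis), with points for replicates 1 to 3 and a bar for the mean and SD. CYP8B1, SLC27A5 and SLC10A1 sit higher in every Huh7 LR library, ABCB11 and NR0B2 sit lower, and CYP7A1 and CYP7B1 had no read in Huh7 P.

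CYP7A1 (ENSG00000167910, chromosome 8, 58490178 to 58500236, minus strand, GRCh38), which encodes the rate-limiting enzyme of the classic route, was close to silent in both lines. It had 0 counts in each Huh7 P library, and Huh7 LR gave 4, 2 and 13. The lines thus did not overlap, but the Huh7 LR values rest on 19 reads in all, most of them from replicate 3. A count of 0 allows up to 3 counts. Taken over the Huh7 P libraries together, this makes CYP7A1 at least 6.19-fold higher in Huh7 LR for the 19 reads as counted, 3.73-fold at the lower end of their 95% counting interval (11.4 to 29.7 reads) and 2.94-fold without replicate 3. These bounds leave out the spread between samples. The two-sided exact permutation test on the 6 libraries gave p = 0.1, the smallest p that 3 samples against 3 allow. It was under the filter of the main test. Without the filter its adjusted p was 0.0499 in edgeR's test, and with DESeq2 it was 0.0321.

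CYP7B1 (ENSG00000172817, chromosome 8, 64587763 to 64798761, minus strand), the oxysterol hydroxylase of the alternative route, had 0 counts in every Huh7 P library, and Huh7 LR gave 0, 3 and 6. The lines met at 0 in Huh7 LR replicate 1. Against 3 counts over the Huh7 P libraries together, the 9 reads of Huh7 LR make the gene at least 2.93-fold higher as counted, and 1.34-fold at the lower end of their counting interval (4.12 to 17.1 reads). Without replicate 3, Huh7 LR had 3 reads, which is at the floor, and no fold is given. The two-sided exact permutation test on the 6 libraries gave p = 0.4, and the adjusted p without the filter was 0.177 in edgeR's test.

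CYP8B1 (ENSG00000180432, chromosome 3, 42856005 to 42876165, minus strand), the sterol hydroxylase needed for cholic acid, had 4, 6 and 2 counts in Huh7 P, against 20, 14 and 19 in Huh7 LR. Every Huh7 LR library was above every Huh7 P library. As CPM, counts scaled by TMM to library size, Huh7 P had a mean of 0.0612 ± 0.0336 (SD, n = 3) and Huh7 LR one of 0.262 ± 0.0554 (SD, n = 3). This is a log2 fold change of 2.07 (standard error, SE, 0.58, with an adjusted p = 0.0133 from edgeR, higher in 3 of 3 libraries). The call was lost without Huh7 P replicate 1 (adjusted p = 0.0506), Huh7 P replicate 3 (0.0575), Huh7 LR replicate 1 (0.0531) or Huh7 LR replicate 3 (0.0535), in a range of 0.0132 to 0.0575 over 10 alternatives. The exons of CYP8B1 share 142 bases with those of ACKR2, a chemokine receptor gene on the opposite strand. ACKR2 had 50, 53 and 63 counts in Huh7 P, against 190, 192 and 186 in Huh7 LR. Since it is not stated that counting used strand, reads of the shared bases cannot be assigned to either gene, and the part of ACKR2 in the CYP8B1 counts was not tested.

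CYP27A1 (ENSG00000135929, chromosome 2, 218781749 to 218815293, plus strand), the mitochondrial sterol 27-hydroxylase that opens the alternative route, was by contrast well expressed. Its counts were 2789, 2833 and 2917 in Huh7 P, against 2839, 4460 and 3744 in Huh7 LR. Replicates 2 and 3 of Huh7 LR were above all of Huh7 P, and replicate 1 lay within the Huh7 P range once scaled. Huh7 P had a mean of 43.1 ± 3.75 CPM (SD, n = 3), and Huh7 LR had one of 54.0 ± 10.1 (SD, n = 3). The log2 fold change of 0.33 (SE 0.12) had an adjusted p of 0.05003 in edgeR's test, just outside the threshold. It was past it in 8 of 13 alternatives, with adjusted p between 0.00217 without Huh7 LR replicate 1 and 0.176 without Huh7 P replicate 1. The log2 fold change was 0.46 without Huh7 LR replicate 1 and 0.20 without Huh7 LR replicate 2.

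The other enzymes that build and shorten the sterol were mostly well expressed. Of 13 genes of this list, 11 were tested, 5 were higher and 2 lower in Huh7 LR, beside 23.3% and 22.4% of all tested, with a median log2 fold change of 0.27 beside 0.0046 over all genes and loci tested. AKR1D1, the reductase of the ring double bond, rose from 4.79 ± 0.611 FPKM (SD, n = 3) to 12.01 ± 3.02 FPKM (SD, n = 3), which on counts was a log2 fold change of 1.26 (SE 0.19, adjusted p = 3.02e-04 in edgeR's test). SLC27A2, a very long chain acyl-CoA synthetase, rose with a log2 fold change of 1.19 (SE 0.09, adjusted p = 3.73e-06 in edgeR's test). Both genes were past 2-fold, and no other tested gene of this list was. AMACR and ACOX2, which act on the side chain in peroxisomes, rose by less, with log2 fold changes of 0.80 and 0.56. HSD17B4 and SCP2, the peroxisomal enzymes of the next steps, had log2 fold changes of -0.23 and -0.21 and were called lower (adjusted p = 0.0205 and 0.0244 in edgeR's test). HSD17B4 lost its call in 2 and SCP2 in 3 of 13 alternatives. For SCP2, limma-trend on log2(FPKM + 0.1) gave -0.56. CH25H had no count in any library, and CYP46A1 was under the filter.

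The conjugating enzymes were low in both lines. SLC27A5 (ENSG00000083807, chromosome 19, 58479512 to 58512413, minus strand), which activates bile acids with coenzyme A, had 113, 106 and 90 counts in Huh7 P, against 166, 134 and 129 in Huh7 LR. Every Huh7 LR library was above every Huh7 P library. Its log2 fold change was 0.44 (95% interval 0.01 to 0.88), which did not pass (adjusted p = 0.0913 in edgeR's test). It was 0.29 without Huh7 LR replicate 1 and 0.52 without Huh7 P replicate 2. Its exons share 1131 bases, 14.1% of them, with ZNF446, a zinc finger gene on the opposite strand, which had a log2 fold change of 0.39 and an adjusted p of 0.00711 in edgeR's test. The part of ZNF446 reads in the SLC27A5 counts was not tested.

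BAAT (ENSG00000136881, chromosome 9, 101360417 to 101383519, minus strand), which transfers the activated acid to glycine or taurine, had 20, 36 and 14 counts in Huh7 P, against 28, 58 and 55 in Huh7 LR. Replicate 2 of Huh7 P was above replicate 1 of Huh7 LR, so the lines overlapped. With a log2 fold change of 0.95 (95% interval -0.01 to 1.91), it did not pass (adjusted p = 0.099 in edgeR's test). It passed without Huh7 P replicate 2 (adjusted p = 0.0274) or Huh7 LR replicate 1 (0.0434), and reached 0.274 without Huh7 P replicate 3. The log2 fold change was 1.48 without Huh7 P replicate 2 and 0.68 without Huh7 P replicate 3. The exons of BAAT share 453 bases, 13.4% of them, with a pseudogene on the opposite strand.

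Transport was described by 2 of the genes, which stand at opposite faces of the hepatocyte. Their promoter sequences are shown because uptake and export lay on opposite sides of 0 and because FXR is known to act on the ABCB11 promoter. RefSeq promoter windows (GRCh38.p14) were found for 6 of the 10 genes, and the 250 bases before the start of SLC10A1 (chr14:69797242-69797491, minus strand) and ABCB11 (chr2:169031325-169031574, minus strand) are written 5′ to 3′ in the sense of the gene. The start is that of RefSeq. The GENCODE gene of SLC10A1 starts further upstream, so that 48 bases of its window lie inside it, and 0 bases of the ABCB11 window do. In SLC10A1 the capitals mark the nuclear receptor half-site AGGTCA, which begins 149 bases before the start. In ABCB11 they mark the inverted repeat of GGGACA and TGATCC spaced by 1 base, the form in which the FXR element of this promoter is known, which begins 65 bases before the start.
SLC10A1: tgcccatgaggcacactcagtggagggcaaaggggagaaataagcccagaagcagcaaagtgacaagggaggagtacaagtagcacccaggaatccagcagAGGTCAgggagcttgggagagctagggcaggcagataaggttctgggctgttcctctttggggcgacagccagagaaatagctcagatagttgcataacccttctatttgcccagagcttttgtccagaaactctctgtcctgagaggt
ABCB11: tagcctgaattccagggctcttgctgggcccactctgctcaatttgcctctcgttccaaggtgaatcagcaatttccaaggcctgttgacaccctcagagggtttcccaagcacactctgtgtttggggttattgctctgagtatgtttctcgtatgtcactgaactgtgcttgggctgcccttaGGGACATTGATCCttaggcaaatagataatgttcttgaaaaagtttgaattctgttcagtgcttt
Each motif was searched on both strands. AGGTCA was in 12.1% of 35116 windows of this length and, of the 6 genes, in SLC10A1, BAAT and NR1H4. The ABCB11 repeat, whose letters were taken from what is known of that gene, was in 1 window of all. A perfect inverted repeat of AGGTCA spaced by 1 base was in 0 windows. With up to 2 of its 12 letters different, it was in 0.945% of windows, SLC10A1 and ABCB11 among them, where it begins 149 and 96 bases before the start. The NR5A2 site TCAAGGTCA (0.319% of windows) and the HNF4A site CAAAGTCCA (0.325%) were in none of the windows of the 6 genes. A match describes the letters of the window and is not a measured binding site.

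SLC10A1 (ENSG00000100652, chromosome 14, 69775417 to 69797289, minus strand), the sodium-dependent uptake carrier also known as NTCP, had 24, 13 and 7 counts in Huh7 P, against 38, 52 and 28 in Huh7 LR. Every Huh7 LR library was above every Huh7 P library, and within each line the libraries spread widely. Huh7 P had a mean of 0.217 ± 0.114 CPM (SD, n = 3), and Huh7 LR had one of 0.578 ± 0.166 (SD, n = 3). This is a log2 fold change of 1.40 (SE 0.45, adjusted p = 0.0268 by edgeR, higher in 3 of 3 libraries). The call was lost without Huh7 P replicate 2 (adjusted p = 0.0739), Huh7 P replicate 3 (0.0909), Huh7 LR replicate 1 (0.0517) or Huh7 LR replicate 2 (0.0979), in a range of 0.0182 to 0.0979 over 10 alternatives.

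ABCB11 (ENSG00000073734, chromosome 2, 168915498 to 169031324, minus strand), the bile salt export pump, had 96, 79 and 72 counts in Huh7 P, against 68, 33 and 58 in Huh7 LR. Every Huh7 LR library was below every Huh7 P library, replicate 2 the furthest. Huh7 P had a mean of 1.24 ± 0.123 CPM (SD, n = 3), and Huh7 LR had one of 0.788 ± 0.291 (SD, n = 3). Its log2 fold change of -0.66 (95% interval -1.31 to -0.0014) did not pass after adjustment (adjusted p = 0.0942 in edgeR's test). It passed only without Huh7 LR replicate 1 (adjusted p = 0.0314), among 11 alternatives that reached up to 0.248. The log2 fold change was -0.91 without Huh7 LR replicate 1 and -0.38 without Huh7 LR replicate 2.

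Among 14 other transporters of bile acids and biliary lipids, 11 were tested, 5 were higher and 2 lower in Huh7 LR, beside 23.3% and 22.4% of all tested, with a median log2 fold change of 0.15. SLCO1B1, a sodium-independent uptake carrier of the hepatocyte, had 0, 11 and 9 counts in Huh7 P, against 88, 156 and 190 in Huh7 LR. All Huh7 LR libraries were above those of Huh7 P, with a log2 fold change of 4.35 (SE 0.59, adjusted p = 1.52e-04 in edgeR's test). The log2 fold change was 3.73 without Huh7 P replicate 1 and 4.96 without Huh7 P replicate 2, and limma-trend gave 2.79 on log2(FPKM + 0.1) and 0.84 on log2(FPKM + 1), all of them called. SLCO1B1 met the filter in 1 Huh7 P library, so it too passed mainly through Huh7 LR. Its close relative SLCO1B3 rose as well, with a log2 fold change of 1.11 and an adjusted p of 0.00371 in edgeR's test, and reads could have been split between such relatives. The efflux pump ABCC3 and the carrier SLCO2B1 rose with log2 fold changes of 0.88 and 0.70. SLCO1A2 and ABCC2, the canalicular conjugate pump, were lower, with log2 fold changes of -0.41 and -0.25 (adjusted p = 0.0444 and 0.0127 in edgeR's test). SLCO1A2 lost its call in 7 of 13 alternatives, with adjusted p up to 0.125 there, and ABCC2 in 1. The log2 fold change of SLCO1A2 was -0.22 without Huh7 LR replicate 2 and -0.59 without Huh7 LR replicate 1.

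NR1H4 (ENSG00000012504, chromosome 12, 100473708 to 100564413, plus strand), the gene of FXR, was among the most expressed of the 10 genes. It had 2366, 2146 and 2404 counts in Huh7 P, against 2196, 1900 and 2080 in Huh7 LR. After scaling, replicate 1 of Huh7 LR lay within the Huh7 P range and the others below it. Huh7 P had a mean of 34.8 ± 1.90 CPM (SD, n = 3), and Huh7 LR had one of 30.4 ± 3.28 (SD, n = 3). Its log2 fold change was -0.20 (95% interval -0.40 to 0.01), and it was not called (adjusted p = 0.104 in edgeR's test). The adjusted p was 0.0243 without Huh7 LR replicate 1 and 0.744 or lower in all 13 alternatives. The log2 fold change was -0.27 without Huh7 LR replicate 1 and -0.11 without Huh7 LR replicate 2.

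NR0B2 (ENSG00000131910, chromosome 1, 26911489 to 26913966, minus strand), the repressor that FXR induces, had 166, 134 and 126 counts in Huh7 P, against 117, 58 and 94 in Huh7 LR. Every Huh7 LR library was below every Huh7 P library, and replicate 2 was the lowest, as for ABCB11 and NR1H4. Huh7 P had a mean of 2.14 ± 0.195 CPM (SD, n = 3), and Huh7 LR had one of 1.33 ± 0.485 (SD, n = 3). A log2 fold change of -0.68 (95% interval -1.26 to -0.11) narrowly failed to pass (adjusted p = 0.0523 in edgeR's test). It passed in 5 of 13 alternatives, with adjusted p from 0.00944 without Huh7 LR replicate 1 to 0.14 without Huh7 P replicate 1. The log2 fold change was -0.96 without Huh7 LR replicate 1 and -0.42 without Huh7 LR replicate 2. Without Huh7 LR replicate 1, NR1H4, NR0B2 and ABCB11 were all called lower, which makes 3 of 8 in place of 0, beside 21.6% of all genes and loci tested in that fit.

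**Figure D2:**
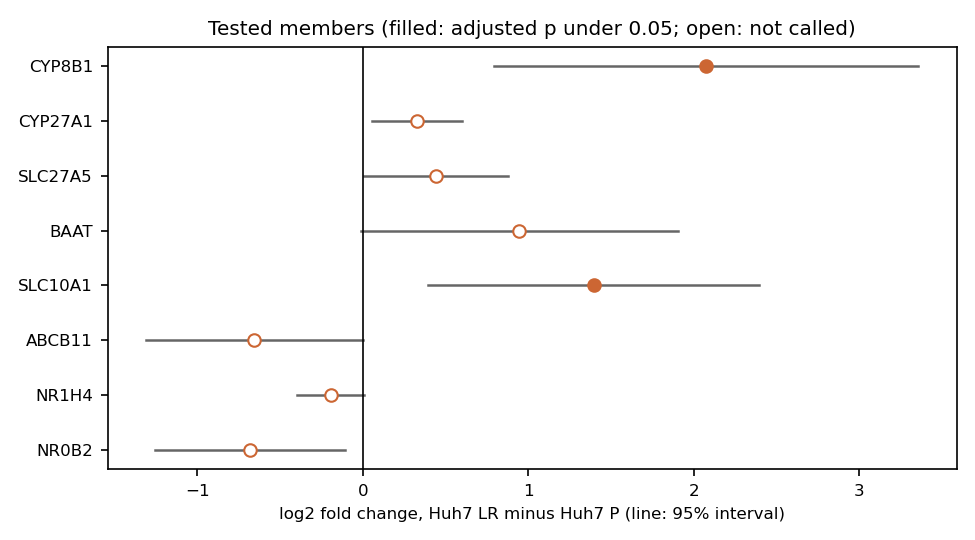
The log2 fold change of Huh7 LR against Huh7 P (x axis) for the 8 genes tested, with its 95% interval as a line, filled points for an adjusted p under 0.05 in edgeR's test and open points for the others. CYP8B1 at 2.07 and SLC10A1 at 1.40 are filled, and the 3 genes below 0 are open.

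In level per transcript length, the 10 genes spanned a wide range. In Huh7 P the mean was 17.4 FPKM for CYP27A1, 14.3 for NR1H4, 1.69 for NR0B2 and 0.827 for SLC27A5, and no libraries of neighbours in this order overlapped. ABCB11 (0.178 FPKM), SLC10A1 (0.0952) and BAAT (0.0948) followed, each overlapping with the next, and then CYP8B1 (0.0135) and CYP7A1 and CYP7B1, both at 0. NR1H4 and CYP27A1 were thus well above the other 8 genes. In Huh7 LR the upper part of the order was the same, with 22.2 FPKM for CYP27A1, 14.0 for NR1H4, 1.07 for NR0B2 and 1.01 for SLC27A5, but NR0B2 and SLC27A5 now overlapped. SLC10A1 (0.261 FPKM) and BAAT (0.21) stood above ABCB11 (0.106), whose libraries did not overlap with those of SLC10A1 but did with those of BAAT. CYP8B1 (0.0594), CYP7A1 (0.0266) and CYP7B1 (0.0163) came last, and from ABCB11 on each gene overlapped with the next. The FPKM value that 1 CPM gave differed between libraries of the same gene, by 1.49 times for CYP7B1 and 1.35 for CYP7A1, which had few reads, and by 1.27 for ABCB11. The cause was not tested. For NR1H4 this factor was 1.21, and limma-trend on log2(FPKM + 0.1) gave it a log2 fold change of -0.04 in place of -0.20.

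**Figure D3:**
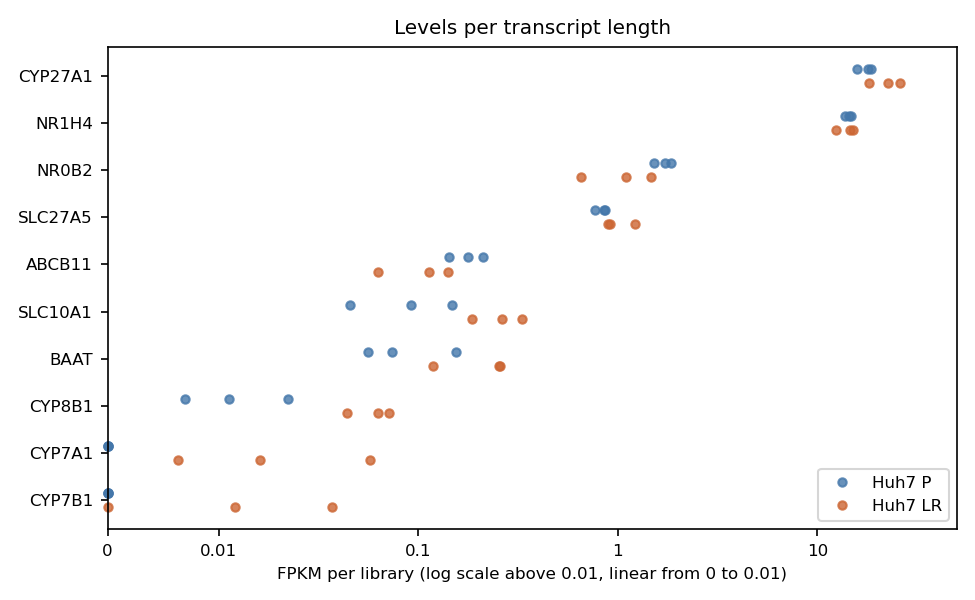
FPKM in each library (x axis, log scale above 0.01 and linear below) for the 10 genes (y axis, ordered by their mean in Huh7 P), with 3 points for each line. CYP27A1 and NR1H4 are near or above 12.4 FPKM in every library, while CYP7A1 and CYP7B1 are at 0 in Huh7 P.

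The receptors, cofactors and hormones that act with FXR were mostly expressed in both lines. All 19 genes of this list were tested, 7 were higher and 3 lower in Huh7 LR, beside 23.3% and 22.4% of all tested, with a median log2 fold change of 0.13. VDR, a receptor that also binds the secondary bile acid lithocholic acid, rose from 0.689 ± 0.0627 FPKM (SD, n = 3) to 3.49 ± 0.733 FPKM (SD, n = 3), a log2 fold change of 2.32 on counts (SE 0.17, adjusted p = 2.40e-06 in edgeR's test). With limma-trend on log2(FPKM + 1) its log2 fold change was 1.40. It was the only gene of the list past 2-fold at an adjusted p under 0.001. RXRA and RXRB, the partners with which FXR binds DNA, had log2 fold changes of 0.31 and 0.34, and both were called. NR5A2, the activator of CYP7A1 and CYP8B1 on which NR0B2 acts, had one of 0.24 (adjusted p = 0.0174 in edgeR's test) and lost its call in 3 of 13 alternatives. ONECUT1 and FOXA2, factors of liver development, rose with log2 fold changes of 0.41 and 0.31. NR1I2, the xenobiotic receptor PXR, and PROX1, a corepressor of NR5A2, were lower, with log2 fold changes of -0.34 and -0.33, and lost their calls in 5 and 3 of 13 alternatives. The log2 fold change of PROX1 was -0.21 without Huh7 LR replicate 2 and -0.40 without Huh7 LR replicate 3. HNF4A (-0.06) was not called and did not keep its sign in every alternative.

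FGF19 signals through FGFR4 with KLB as co-receptor, and FGFR4 is also a target of lenvatinib. FGFR4 had 39271, 32541 and 36020 counts in Huh7 P, against 25702, 31968 and 27487 in Huh7 LR. The lines did not overlap after scaling, and the log2 fold change was -0.37 (SE 0.07, adjusted p = 0.00186 in edgeR's test). KLB had 13489, 11598 and 12235 counts in Huh7 P, against 18718, 19258 and 20924 in Huh7 LR. It was higher in every Huh7 LR library, with a log2 fold change of 0.63 (SE 0.07, adjusted p = 3.25e-05 in edgeR's test). Receptor and co-receptor thus moved in opposite directions, and both kept their calls in all 13 alternatives. FGF19 itself, a hormone of the ileum in healthy tissue, was expressed at 9.57 ± 0.378 FPKM (SD, n = 3) in Huh7 P and 9.39 ± 0.0199 FPKM (SD, n = 3) in Huh7 LR. For its counts, the log2 fold change was -0.05 (95% interval -0.22 to 0.11, adjusted p = 0.586 in edgeR's test).

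Of 18 genes outside the 10 that are known to be induced or repressed by FXR, all were tested, 9 were higher and 3 lower in Huh7 LR, beside 23.3% and 22.4% of all tested, with a median log2 fold change of 0.30. The list holds genes that many other factors control, and it shares ABCB4, ABCC2, SLC51A and SLC51B with the transporters and FGF19, PPARA and MAFG with the regulators. FGA, FGB and FGG, the fibrinogen chains, rose with log2 fold changes of 3.48, 2.49 and 2.42, values that were known when the list was made. CYP3A4, a drug and bile acid hydroxylase with close relatives, had 8, 7 and 7 counts in Huh7 P, against 48, 46 and 37 in Huh7 LR. The log2 fold change was 2.52 (SE 0.39, adjusted p = 3.42e-04 in edgeR's test), but CYP3A4 reached the filter's level in Huh7 LR alone, so that a difference was built into its being tested. Without it, 8 of 17 genes of the list were higher, with a median log2 fold change of 0.15, and without the fibrinogen chains as well, 5 of 14 were higher and 3 lower, with one of 0.10. PLTP, a phospholipid transfer protein, was lower with a log2 fold change of -1.33, and APOC2, an apolipoprotein of triglyceride-rich particles, with one of -0.55. NR0B2 and ABCB11, which FXR induces, did not pass. SLC51B, a subunit of the basolateral bile acid exporter, had a log2 fold change of 0.15 and an adjusted p of 0.22 in edgeR's test, and SLC51A, the other subunit, had -0.22 (adjusted p = 0.29), so neither passed. ABCB4, the phospholipid flippase of the canaliculus, was higher with 0.47 (adjusted p = 0.00554 in edgeR's test). The differences between these genes were not tested.

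Other genes hydroxylate or conjugate bile acids or belong to the metabolism of foreign compounds. Of 7 genes in this list, 6 were tested, 5 were higher and 1 was lower in Huh7 LR, beside 23.3% and 22.4% of all tested, and the median log2 fold change was 0.87. UGT2B4, which adds glucuronic acid to bile acids, rose from 3.51 ± 0.173 FPKM (SD, n = 3) to 11.4 ± 1.90 FPKM (SD, n = 3), which on counts was a log2 fold change of 1.68 (SE 0.13, adjusted p = 2.84e-06 in edgeR's test). EPHX1, an epoxide hydrolase, and UGT2B7, another glucuronosyltransferase, had log2 fold changes of 0.88 and 0.86. CYP2B6 was lower, with a log2 fold change of -0.84 and an adjusted p of 0.0163 in edgeR's test, and lost its call without Huh7 P replicate 1 (0.0815). UGT1A3 had no count in any library. Several of these genes have close paralogs, among which reads could have been split. CYP3A4, UGT2B4 and SULT2A1 are also in the list of FXR targets, and without CYP3A4, 4 of 5 were higher. The genes belong to drug metabolism as well, in which higher values in Huh7 LR were known when the list was made.

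**Figure D4:**
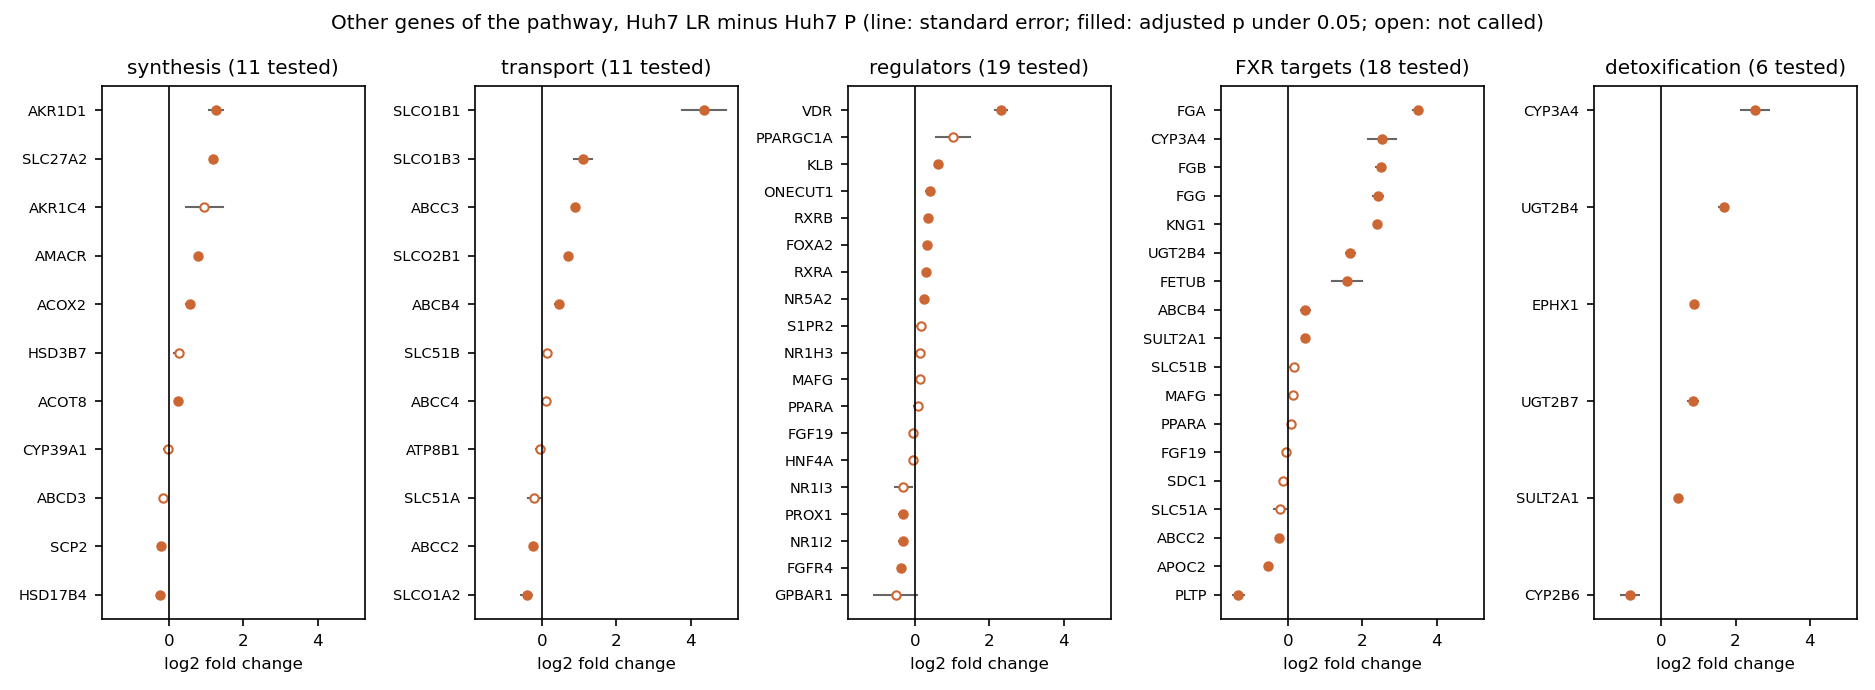
The log2 fold change of Huh7 LR against Huh7 P (x axis) for the tested genes of 5 lists of the pathway, with its standard error as a line, filled points for an adjusted p under 0.05 in edgeR's test and open points for the others. SLCO1B1 at 4.35 and FGA at 3.48 lie furthest to the right, and PLTP at -1.33 furthest to the left.

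Markers of other cell types, some of which handle bile acids, were measured as well, although all samples were cultures of a hepatocellular carcinoma cell line. Of 6 enterocyte markers, 4 were tested, 2 were higher and 1 lower in Huh7 LR, beside 23.3% and 22.4% of all tested. Their FPKM values summed to 107.1, 106.9 and 105.3 in Huh7 P, against 108.5, 128.7 and 118.7 in Huh7 LR. VIL1 was the most abundant and the one called lower (log2 fold change -0.25 and adjusted p = 0.0314 in edgeR's test). CDX2 and SI, an intestinal transcription factor and a brush border enzyme, rose with log2 fold changes of 0.57 and 1.69, and SLC10A2, the bile acid carrier of the ileum, had no count in any library. Of 8 cholangiocyte markers, 5 were tested, 3 were higher and 1, KRT19, was lower (log2 fold change -2.07), beside 23.3% and 22.4% of all tested. Their sum was between 188.0 and 201.6 FPKM in the 6 libraries, EPCAM was the most abundant, and KRT7 had 3 counts in 1 library and 0 in the others. Of 7 fibroblast markers, 3 were tested, 2 were higher and 0 lower, beside 23.3% and 22.4% of all tested. Their sums were 0.474, 0.478 and 0.526 FPKM in Huh7 P, against 1.82, 0.916 and 0.999 FPKM in Huh7 LR. COL1A1 was the most abundant and DCN had no count. Of 6 leukocyte markers, 3 were tested, 0 were higher and 1, LYZ, was lower, beside 23.3% and 22.4% of all tested. At an unadjusted p under 0.05 by edgeR, 1 was higher and 1 lower, beside 26.7% and 26.0% of all tested. LYZ made up most of their sum, which was 40.9, 40.4 and 37.0 FPKM in Huh7 P, against 7.72, 8.10 and 5.94 FPKM in Huh7 LR, and HLA-DRA and TYROBP had no count. The part of cells with an intestinal or biliary pattern in the values of the 10 genes was not tested.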

How the data were processed

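The authors deposited for each gene and library a count of reads, whole numbers without normalization, and an FPKM value scaled for transcript length and library size. The submitters' processing notes name TopHat2, Cufflinks and DESeq, without versions or roles, and the mouse build mm10, and the labels tell of RNA taken from honeybee larvae, whereas the identifiers are of human genes. Use of strand is not given in the sources used here. Lines of text without a gene (34) were left out. The counts were tested with edgeR 4.0.16 under R 4.3.3, with filterByExpr (minimum count 10, minimum total 15), TMM factors of 0.977 to 1.03, the quasi-likelihood test and Benjamini-Hochberg adjustment over 17531 genes and loci. The F statistic and the fitted change gave the SE and 95% interval. Alternatives were DESeq2 1.42.0, its size factors, other filters, a replicate block, limma-trend (limma 3.58.1) on log2 FPKM with 0.1 or 1 added, where 3 libraries reached 0.5 FPKM, and each library left out. Spearman's correlation was 0.991 to 0.995 between replicates of a line, none of which agreed within counting noise. P-values measure the spread between these samples, which may be technical. From each list, up to 4 higher and 4 lower genes were named, and regulators could be named besides. NR1H3, GPBAR1, S1PR2, MAFG and PPARGC1A were not called, and their values are not described. ACKR2, ZNF446, ABCB4, KNG1, SLC51A, SLC51B, SULT2A1, CYP46A1, CH25H and UGT1A3 fall outside this rule and were named after their values were seen. The 10 genes and the lists were chosen with earlier results of these data known, and the search with altered letters, the ABCB11 repeat and the counts without CYP8B1, CYP3A4 or the fibrinogen chains were added after seeing the data. Not every planned gene and motif is reported here. Coordinates and exon overlaps are from GENCODE release 29 (GRCh38). Methods were tested on simulated data. Figures were drawn with matplotlib 3.10.9.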

Additional observations from a re-analysis of the deposited data

How the results depend on the processing

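The counts of all genes higher or lower in Huh7 LR stayed within 1.5 times under all 13 alternatives, from 3349 to 4135 higher and 3002 to 3984 lower with each library left out. Counts of the 10 genes rest on calls near the threshold. Higher were 4 of 9 tested with DESeq2 (19.4% of all tested in that fit) and 4 of 10 without the filter (17.9%). In the main test they were 2 of 8 (23.3%), and with the size factors of DESeq2 3 of 8 (23.4%). With at least 10 counts in every library, 1 of 6 was higher (25.2%). Limma-trend on either FPKM scale left out genes of few reads, tested 4 and called 1 higher (25% and 25.1%). With each library left out, 0 to 2 of 8 were higher, beside 18.6% to 23.1% of all tested. Of the 10 genes, 1 was lower without the filter (16.5% of all tested in that fit) and with the replicate block (23%). With limma-trend on either FPKM scale it was also 1 (23.4% and 23.5%). With each library left out, 0 to 3 of 8 were lower (0 in the main test), beside 16.6% to 22.2% of all tested. With the replicate block, 3 of the 8 tested were higher (23.3% of all tested), and 4089 genes were higher and 4033 lower in all. The deviations of same-numbered libraries correlated at 0.029, 0.031 and 0.032, and those of libraries with different numbers at -0.0279 to -0.0021. Each library thus correlated best with its own number, but these small correlations do not decide whether the numbers pair the samples. With limma-trend on either FPKM scale, 1 transporter, 1 regulator and 0 detoxification genes were lower, beside 23.4% and 23.5% of all tested. CYP2B6, the detoxification gene lower in the main test, was not tested there. With each library left out, 0 to 2 synthesis genes, 0 to 2 transporters and 0 to 1 detoxification genes were lower, beside 16.6% to 22.2% of all tested. The main test covered 11 synthesis genes, 11 transporters, 19 regulators and 6 detoxification genes. Among genes that were not called, log2 fold changes reversed. HNF4A had 0.371 and 0.367 with limma-trend after adding 0.1 or 1 to FPKM and -0.112 to 0.0238 with each library left out, PPARA had -0.0032 to 0.173 with each library left out, and NR1I3 had 0.111 and 0.0677 with limma-trend after adding 0.1 or 1. The cause was not tested. Over 49 genes, which are the 8 tested of the 10, those named from the lists by rule and all regulators, 559 of 615 values kept their direction and side of the threshold, 33 lost and 17 gained a call. Depth limits CYP7A1, CYP7B1 and CYP8B1, which had at most 20 counts in any library.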

Other observations

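The spread within Huh7 LR was widest between replicates 1 and 2. The chi-square of counts per degree of freedom, which is near 1 for counting noise alone, was 58.7 between them, 23.7 between replicates 1 and 3 and 28.4 between 2 and 3. Between the Huh7 P replicates it was 14.0 to 32.6. Replicates 1 and 2 of Huh7 LR were also the ends of this line for 6 of the 8 genes tested. The share of all genes and loci tested with these ends was not measured. In CPM, CYP8B1 was at 0.3068 in replicate 1 and 0.1998 in replicate 2. CYP27A1 was at 43.5 in replicate 1 and 63.6 in replicate 2, and BAAT at 0.429 and 0.828. NR0B2 was at 1.79 and 0.828, ABCB11 at 1.04 and 0.471, and NR1H4 at 33.7 and 27.1 in the same order. For each of these genes replicate 3 lay between them. Without replicate 1, CYP8B1 did not pass (0.0531), while NR0B2, ABCB11, NR1H4 and BAAT passed with adjusted p of 0.00944, 0.0314, 0.0243 and 0.0434 in edgeR's test, and CYP27A1 with 0.00217. With all libraries none of these 5 passed, and neither did they without replicate 2 (0.132, 0.248, 0.315, 0.233 and 0.156 in the same order) or replicate 3 (0.104, 0.142, 0.206, 0.250 and 0.124). CYP8B1 passed without replicate 2 (0.0226) and did not without replicate 3 (0.0535). What sets replicate 1 apart from replicate 2 was not tested.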
